A study of Mus musculus with 17 samples.

Results

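Fos, Fosb, Jun, Junb, Atf3, Egr1, Egr2, Nr4a1, Npas4 and Arc are immediate early genes, which are transcribed within minutes of a stimulus from factors already present in the cell. They were chosen by name, as the rows of a count table whose Ensembl gene IDs carry these mouse symbols in GENCODE vM21, and all 10 were found among 42687 genes. All but Arc encode transcription factors. Arc encodes a synaptic protein that binds the cytoskeleton and is an effector of the same early response. In GENCODE vM21 (GRCm38) the AP-1 genes were Fos (ENSMUSG00000021250) at chr12:85473890-85477273, Fosb (ENSMUSG00000003545) at chr7:19302696-19310051, Jun (ENSMUSG00000052684) at chr4:95049034-95052222 and Junb (ENSMUSG00000052837) at chr8:84974484-84978718, with Atf3 (ENSMUSG00000026628) at chr1:191170296-191218039. The others were Egr2 (ENSMUSG00000037868) at chr10:67535475-67542188, Nr4a1 (ENSMUSG00000023034) at chr15:101254269-101274795, Arc (ENSMUSG00000022602) at chr15:74669083-74672570, Npas4 (ENSMUSG00000045903) at chr19:4984355-4990316 and Egr1 (ENSMUSG00000038418).

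RNA was sequenced from microvessels isolated from the cerebral cortex of mice aged 10 to 11 months. The mice were wild type (WT) or APP/PS1, which carry transgenes that give amyloid plaques. The promoter of these transgenes is not given in the sources used here. Every mouse received a peptide at 10 mg/kg into the peritoneum, repeated at 2 day intervals over 2 weeks. The peptide was gp91-ds-tat, which inhibits the NADPH oxidase NOX2, or the control peptide sgp91-ds-tat, so that no group was left uninjected. The labels abbreviate the peptides as NOX2 and SC, and these were read as inhibitor and control. Control peptide was given in WT_SC (5 libraries, WT) and APP_SC (2 libraries, APP/PS1), and inhibitor in WT_NOX2 (5 libraries, WT) and APP_NOX2 (5 libraries, APP/PS1). The labels do not say whether each library came from a separate mouse, so p-values measure the spread between these libraries. The sample titles are numbered, and APP/PS1 and WT libraries fall mostly in separate runs of these numbers. What the numbers stand for is not said, and their part in the differences between genotypes was not tested. Per the labels' protocols, tissue was handled in a cold room to limit activation of cells, and the protocol speaks of surgery and of ipsilateral cortices.

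The AP-1 factors (Fos, Fosb, Jun, Junb) bind DNA as pairs joined through a leucine zipper, and Atf3 is a related zipper protein induced by stress. Egr1 and Egr2 are zinc finger proteins, and Nr4a1 is an orphan nuclear receptor. Npas4 is a factor induced in neurons by calcium entry. In brain these genes are widely used as marks of recent neuronal activity, and several are also induced in endothelial and glial cells by growth factors, flow, injury or tissue dissociation. Their induction runs largely through CREB, which binds the cAMP response element (CRE), and through serum response factor, which binds the CArG box.

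Promoter windows were taken from RefSeq (GRCm38.p6), each with 250 bases before and 50 after an annotated start. Those of 8 of the 10 genes were searched. Egr1 and Arc were not searched, so their motifs are not known from this. The stretches below are shown because the motif that most of these promoters shared lies in them. It is the CRE core TGACG, read on either strand and printed in capitals as TGACG or CGTCA, and in the Egr2 stretch the CArG box is in capitals too.

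Fos, chr12:85473760-85473864, plus strand: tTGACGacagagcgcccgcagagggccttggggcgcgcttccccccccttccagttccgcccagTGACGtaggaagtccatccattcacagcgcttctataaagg
Nr4a1, chr15:101266766-101266825, plus strand: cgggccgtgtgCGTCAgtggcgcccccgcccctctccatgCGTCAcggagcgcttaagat
Junb, chr8:84978819-84978868, minus strand: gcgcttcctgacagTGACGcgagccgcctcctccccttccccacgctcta
Fosb, chr7:19310071-19310120, minus strand: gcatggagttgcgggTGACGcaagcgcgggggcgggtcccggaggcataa
Atf3, chr1:191183334-191183383, minus strand: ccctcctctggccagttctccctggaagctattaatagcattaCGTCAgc
Npas4, chr19:4990122-4990151, minus strand: aCGTCAcgggaTGACGtcggaagtctggga
Egr2, chr10:67537789-67537818, plus strand: tcctcagtCCATATATGGgcagcgaCGTCA

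The CRE core was present in 7 of the 8 genes, all but Jun, against 23.0% of 27025 genes. It was in 9 of the 12 windows, against 20.8% of 32851, but 3 of these 9 are Egr2 windows that overlap and hold the same sites. Nr4a1 held 4 copies, and Fos, Npas4 and each of those Egr2 windows held 2. Junb, Fosb and Atf3 held 1 copy each. The full palindrome TGACGTCA was in none of the 12 windows, against 1.79% of all windows. Of the 8 genes searched, a CArG box was found in Egr2 alone, against 1.81% of all genes. The AP-1 motif TGANTCA was in none of the 12 windows (7.81% of all windows). The EGR motif GCGNGGGCG was in 2 of the 8 genes, Fosb and Nr4a1 (6.27% of all genes). Sites more than 250 bases before a start were not searched. The CRE core is part of the full palindrome, so the counts of these motifs are not independent. These are matches of letters and do not show that a factor binds. The Npas4 stretch lies inside an exon of another annotated transcript, and 7 bases of the Atf3 stretch also lie in an annotated exon.

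Total counts were 7316503 to 17862965 per library (median 11342154), and the ribosomal RNA-linked genes Gm26917 and Gm42418 took 4.76% to 16.0% of them. Markers of endothelial cells, pericytes and astrocytes, the cells that the labels name, were detected in every library. The 8 neuron markers (Rbfox3, Snap25, Syt1, Slc17a7, Camk2a, Gad1, Gad2 and Nrgn) were also detected in every library and summed to 3082 to 5049 CPM (counts divided by TMM library sizes from edgeR). The 7 endothelial markers summed to 2354 to 4355 CPM. RNA of neuronal genes was thus present beside that of vessel cells. In such bulk samples fewer cells of a type and less RNA per cell cannot be told apart.

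All 10 genes passed the filter on low counts and had at least 1 count in every library. Per kilobase of exon, Arc had the highest mean level over the 17 libraries (29.2 CPM per kb), followed by Egr1 (21.1), Nr4a1 (18.6), Jun (15.4), Junb (13.5) and Npas4 (8.90). Fos (3.95), Fosb (1.12), Egr2 (0.894) and Atf3 (0.764) were lower. Fos stood below Npas4 and above Fosb in 17 of 17 libraries. Egr2 and Atf3 did not separate, since Egr2 was the higher in 9 of 17 libraries. Nor did Egr1 and Nr4a1, with Egr1 the higher in 11 of 17. Arc was above Egr1 in 15 libraries, Nr4a1 above Jun in 14, Jun above Junb in 12, Junb above Npas4 in 15 and Fosb above Egr2 in 14.

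**Figure D1:**
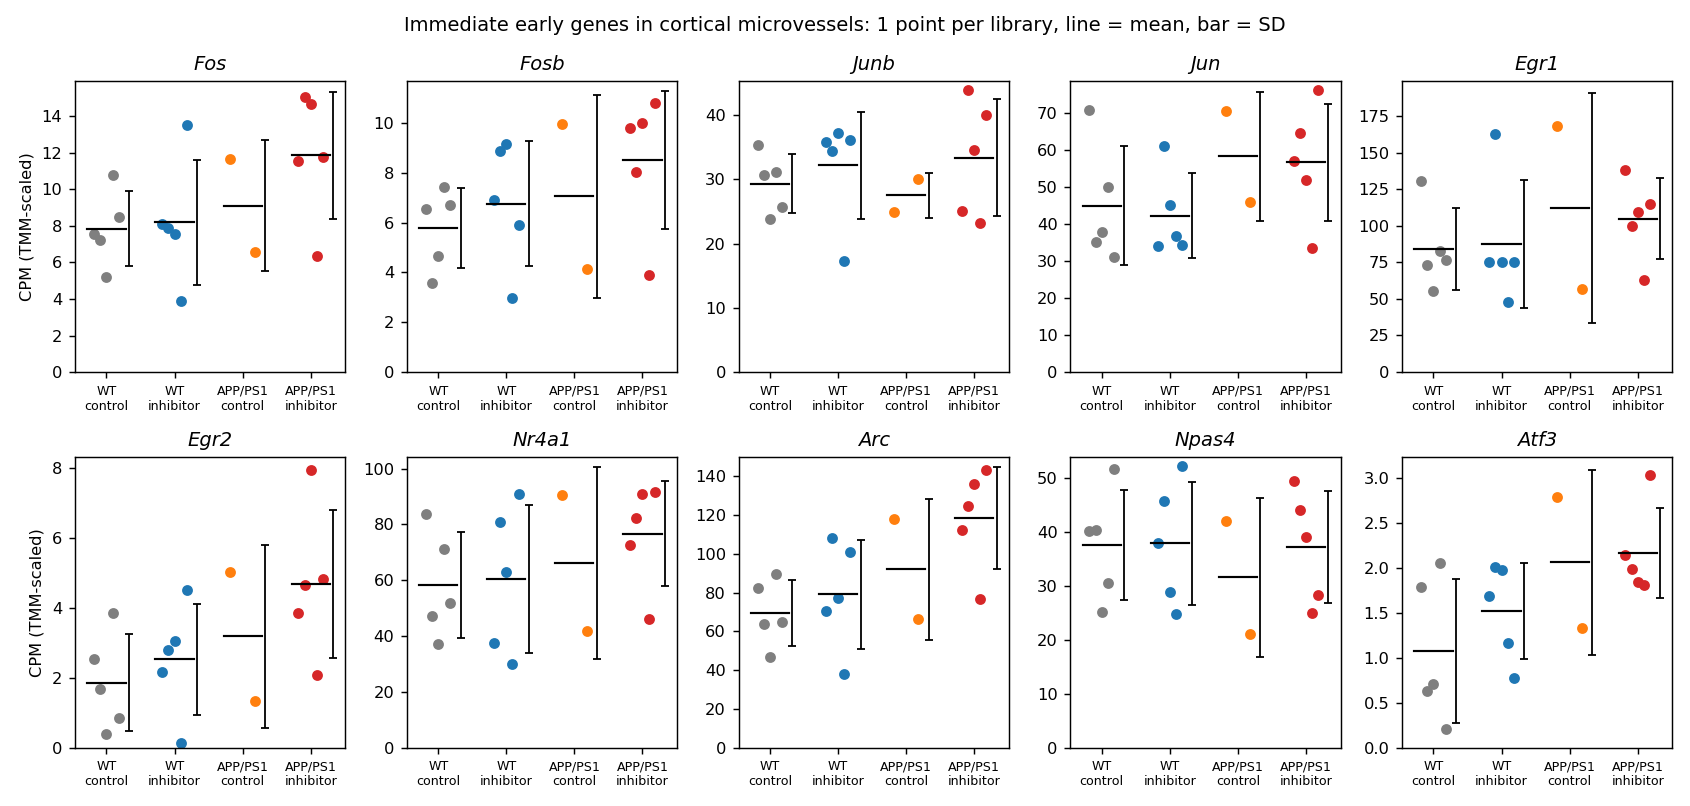
Level of each immediate early gene in each library, in CPM. The 4 groups stand side by side, with a point for each library and a bar at the group mean. The groups overlap for all 10 genes (the share over all genes is not given), and the 2 APP_SC libraries lie apart for most of them.

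Among the AP-1 genes, Fos in WT_SC was at 7.58, 7.23, 5.18, 10.8 and 8.47 CPM and in WT_NOX2 at 8.13, 7.91, 7.54, 3.90 and 13.5 CPM. In APP_SC it was at 11.6 and 6.57 CPM, and in APP_NOX2 at 11.6, 15.1, 14.7, 6.35 and 11.8 CPM. For Fos 2 of the 7 APP/PS1 libraries lay above the highest WT library. For this and the like counts below, the share over all genes is not given, so they describe these genes alone. Jun, the usual partner of Fos, was at 70.6, 35.2, 37.7, 49.9 and 31.0 CPM in WT_SC and 34.0, 60.9, 45.1, 36.6 and 34.2 CPM in WT_NOX2. In APP_SC it was at 70.5 and 45.8 CPM, and in APP_NOX2 at 57.0, 64.4, 51.8, 33.4 and 76.1 CPM. For Jun 1 APP/PS1 library lay above all WT libraries, while 6 lay above the WT median. Fosb, whose splice forms include the stable ΔFosB, ranged over 2.99 to 9.16 CPM in WT and 3.90 to 10.8 CPM in APP/PS1. By group it was at 5.78 ± 1.60 CPM (SD, n = 5) in WT_SC, 6.77 ± 2.51 CPM (SD, n = 5) in WT_NOX2, 7.05 ± 4.09 CPM (SD, n = 2) in APP_SC and 8.51 ± 2.77 CPM (SD, n = 5) in APP_NOX2, with overlap of all groups. Junb, which can oppose Jun at some promoters, ranged over 17.3 to 37.2 CPM in WT and 23.2 to 44.0 CPM in APP/PS1. By group its level was 29.3 ± 4.59 CPM (SD, n = 5) in WT_SC, 32.2 ± 8.39 CPM (SD, n = 5) in WT_NOX2, 27.5 ± 3.56 CPM (SD, n = 2) in APP_SC and 33.4 ± 9.11 CPM (SD, n = 5) in APP_NOX2. The range of Junb in each genotype covered most of the other. Atf3 was at 1.79, 0.629, 0.711, 2.05 and 0.209 CPM in WT_SC and 1.68, 2.01, 1.97, 1.17 and 0.777 CPM in WT_NOX2. It was at 2.79 and 1.33 CPM in APP_SC and 2.15, 1.99, 1.85, 1.81 and 3.03 CPM in APP_NOX2. Its lowest value, in WT_SC replicate 5, was 2 counts, below the 3 counts taken as the smallest level a library could show.

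Of the zinc finger genes, Egr1 was at 131, 73.4, 55.7, 82.9 and 76.8 CPM in WT_SC and 75.5, 163, 75.6, 48.2 and 75.1 CPM in WT_NOX2. It was at 168 and 56.6 CPM in APP_SC and 138, 99.9, 109, 62.6 and 115 CPM in APP_NOX2. The highest Egr1 values came from 1 library each of APP_SC and WT_NOX2, and 1 of 7 APP/PS1 libraries lay above every WT library. Egr2 was at 2.55, 1.68, 0.406, 3.84 and 0.837 CPM in WT_SC and 2.15, 2.79, 3.05, 0.130 and 4.51 CPM in WT_NOX2. It was at 5.03 and 1.33 CPM in APP_SC and 3.85, 4.65, 7.93, 2.09 and 4.83 CPM in APP_NOX2. Its spread was the widest of the 10. The lowest value, in WT_NOX2 replicate 4, rested on 1 count, and with that value raised to the floor of 3 counts the highest library was 20.3 times the lowest. For Atf3 the ratio at this floor was 9.66, and for the other 8 genes it ran from 2.46 (Jun) to 3.86 (Fos). Nr4a1 ranged over 30.0 to 91.0 CPM in WT and 41.7 to 91.7 CPM in APP/PS1. By group it was at 58.2 ± 18.9 CPM (SD, n = 5) in WT_SC, 60.5 ± 26.5 CPM (SD, n = 5) in WT_NOX2, 66.2 ± 34.6 CPM (SD, n = 2) in APP_SC and 76.8 ± 18.7 CPM (SD, n = 5) in APP_NOX2.

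Arc was at 82.4, 64.0, 46.7, 89.7 and 64.6 CPM in WT_SC and 70.7, 108, 77.5, 37.8 and 101 CPM in WT_NOX2. In APP_SC it was at 118 and 66.4 CPM, and in APP_NOX2 at 113, 125, 136, 76.5 and 143 CPM. Of the 10 genes Arc had the most APP/PS1 libraries above the highest WT library, 5 of 7, and the other 2 were APP_SC replicate 2 and APP_NOX2 replicate 4. This is a ranking within the 10 genes, and the share of all genes with such a count is not given. Npas4 was at 40.1, 40.3, 25.2, 30.5 and 51.6 CPM in WT_SC and 38.0, 45.6, 28.8, 24.8 and 52.1 CPM in WT_NOX2. It was at 42.0 and 21.1 CPM in APP_SC and 49.4, 44.0, 39.1, 25.0 and 28.4 CPM in APP_NOX2. No APP/PS1 library exceeded the WT range of Npas4.

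Certain libraries were low or high for most of these genes. WT_NOX2 replicate 4, which had the smallest total count, was the lowest of 17 for 7 genes. After all libraries were thinned to its 7316503 counts it was still the lowest for 7, namely Fos, Fosb, Junb, Egr1, Egr2, Nr4a1 and Arc. Since CPM is already divided by library size, this does not test the part of depth. APP_NOX2 replicate 5 was the highest for 5 genes. WT_SC replicate 3 was among the 3 lowest libraries for 7 genes, and APP_NOX2 replicate 4 for 5. The 2 APP_SC libraries also differed. Replicate 1 had the higher level for 9 of 10 genes, with a median ratio of 2.04 to replicate 2. Over all genes the median ratio was 0.993, with 0.5 CPM added to both libraries, which was not done for the 10 genes. The ratio was 3.78 for Egr2 and 2.97 for Egr1, and Junb alone was lower, at 0.832. Replicate 1 had 16292707 counts and a neuron marker sum of 4771 CPM, and replicate 2 had 12390525 counts and 3848 CPM. The part of these in the difference was not tested.

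**Figure D2:**
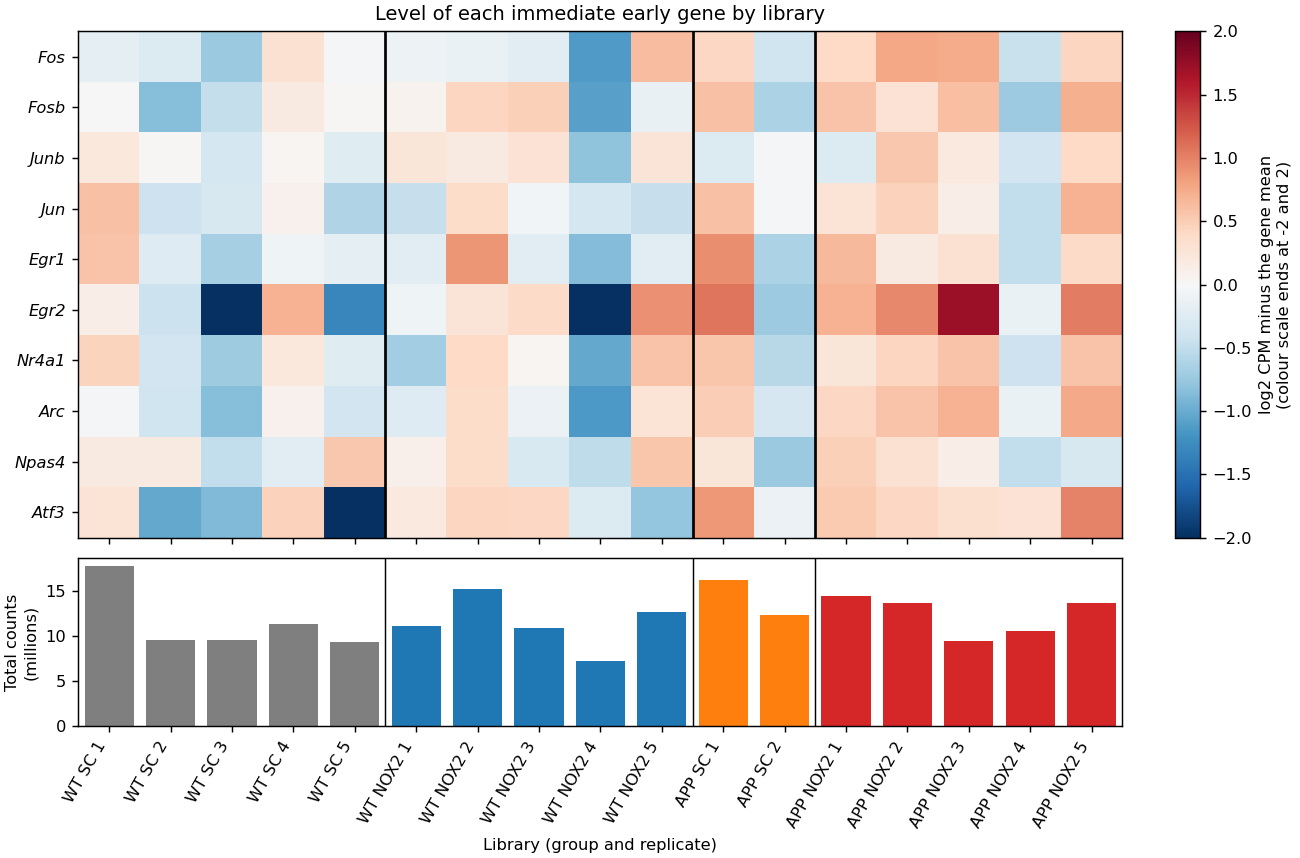
Level of the 10 genes in each of the 17 libraries as log2 CPM less the gene's mean over all libraries, with libraries in columns by group and genes in rows. Whole columns tend to share a colour, low in WT_NOX2 replicate 4 and high in APP_NOX2 replicate 5.

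The first comparison asked whether the genotype went with a different level of these genes. Over both peptides 8 of 10 were higher in APP/PS1 (50.7% of all 18753 genes tested were higher) and 0 passed edgeR's quasi-likelihood test at a Benjamini-Hochberg adjusted p of 0.05, which 0.587% of all genes passed. The median log2 change of the 10 was 0.36, and that of all genes was 0.0017. At an unadjusted p under 0.05 there were 3, Arc, Jun and Atf3, where 6.38% of all genes reached it. DESeq2 called 0 as well, with the same 3 at an unadjusted p under 0.05. The 10 genes varied together between libraries, as described further on, so their directions are not separate observations.

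Arc averaged 74.3 ± 22.3 CPM (SD, n = 10) in WT and 111 ± 29.1 CPM (SD, n = 7) in APP/PS1, with a fitted log2 change of 0.52 ± 0.19 (SE). By edgeR's quasi-likelihood test the adjusted p = 0.520, so the difference did not pass. Fitted changes in this paragraph are genotype terms of an additive model that also holds peptide. The means pool both peptides, with inhibitor in 5 of 10 WT and 5 of 7 APP/PS1 libraries. Ratios of the means can therefore differ from the fitted changes. Jun averaged 43.5 ± 13.2 CPM (SD, n = 10) and 57.0 ± 14.8 CPM (SD, n = 7), with a log2 change of 0.40 ± 0.18 (edgeR adjusted p = 0.741). For Atf3 the means were 1.30 ± 0.683 CPM (SD, n = 10) and 2.14 ± 0.590 CPM (SD, n = 7), with 0.64 ± 0.30 (edgeR adjusted p = 0.776). None of the 3 passed after adjustment over all genes. Egr2 had the largest fitted change of the 10, 0.80 ± 0.40 on the log2 scale (edgeR adjusted p = 0.791). Its means were 2.19 ± 1.45 CPM (SD, n = 10) and 4.25 ± 2.16 CPM (SD, n = 7). Fos was at 8.03 ± 2.67 CPM (SD, n = 10) and 11.1 ± 3.47 CPM (SD, n = 7), with a fitted change of 0.41 ± 0.21 (edgeR adjusted p = 0.817). The log2 changes of Fosb, Egr1 and Nr4a1 were smaller, at 0.30 ± 0.23, 0.32 ± 0.24 and 0.28 ± 0.23. Without APP_SC replicate 1 they were 0.14, 0.076 and 0.15, and the median of the 10 was 0.24. Those of Junb (-0.0049 ± 0.15) and Npas4 (-0.11 ± 0.19) were below 0, within 1 SE.

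**Figure D3:**
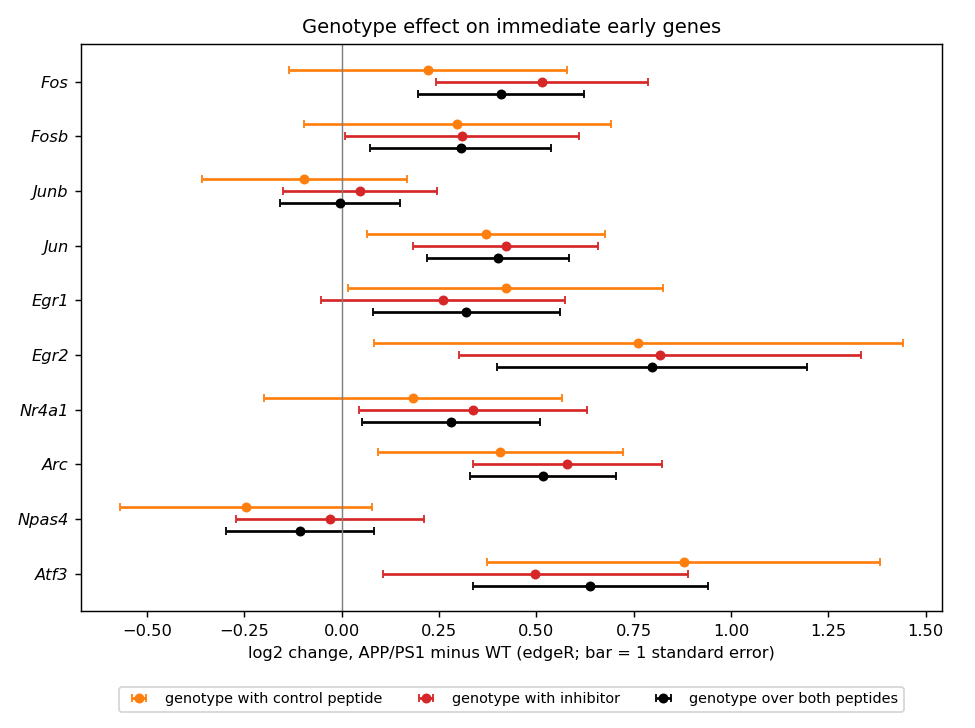
Log2 change of each gene between APP/PS1 and WT in edgeR, with control peptide, with inhibitor and over both, where points are estimates and bars are 1 SE. All but Junb and Npas4 lie to the right of 0 in each comparison, and none passed the test after adjustment over all genes.

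With the control peptide, 5 WT and 2 APP/PS1 libraries were compared. Here 8 of 10 genes were higher in APP/PS1 (51.2% of all genes), 0 passed edgeR's test (0.0533% of all genes) and 0 had an unadjusted p under 0.05 (3.97%). The median log2 change was 0.33. Atf3 (0.88 ± 0.50) and Egr2 (0.76 ± 0.68) had the largest estimates. They were followed by Egr1 (0.42 ± 0.40), Arc (0.41 ± 0.31), Jun (0.37 ± 0.31) and Fosb (0.30 ± 0.39), while Fos was at 0.22 ± 0.36 and Nr4a1 at 0.18 ± 0.38. Junb (-0.097 ± 0.26) and Npas4 (-0.25 ± 0.32) were below 0. The direction rested on APP_SC replicate 1. Without it the median was -0.37 and 3 of 10 genes were higher, and without replicate 2 the median was 0.70.

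With the inhibitor, where both arms held 5 libraries, 9 of 10 genes were higher in APP/PS1 (50.6% of all genes). No member passed edgeR's test (0.181% of all genes did), 1 had an unadjusted p under 0.05 (3.38%), and the median log2 change was 0.38. It was Arc, at 0.58 ± 0.24 (edgeR adjusted p = 1.00). Egr2 (0.82 ± 0.52), Fos (0.52 ± 0.27), Atf3 (0.50 ± 0.39) and Jun (0.42 ± 0.24) came next, then Nr4a1 (0.34 ± 0.29), Fosb (0.31 ± 0.30) and Egr1 (0.26 ± 0.31). Junb (0.047 ± 0.20) and Npas4 (-0.030 ± 0.24) lay within 1 SE of 0.

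Marker levels by genotype stand beside these values. The neuron markers summed to 3082 to 5049 CPM in WT and 3288 to 4771 CPM in APP/PS1, and 0 of 8 were called by edgeR, with a median log2 change of 0.042. The 6 microglia markers summed to 193 to 267 CPM in WT and 237 to 411 CPM in APP/PS1, and 6 of 6 were higher, 4 of them called. Astrocyte markers summed to 2952 to 4364 and 3053 to 5092 CPM, with 5 of 6 higher and 1 called. Oligodendrocyte markers were higher in 6 of 6, with 0 called and a median of 0.12. Neutrophil genes summed to 8.71 to 26.2 CPM in WT and 22.3 to 29.8 CPM in APP/PS1, and these sums were mostly Csf3r. Of the 4 tested, 2 were higher and 2 lower over both peptides (median -0.12), with 1 called. With control peptide 3 of 4 were higher (median 0.59), and with inhibitor 1 of 4 was (median -0.61). Choroid plexus genes varied widely between libraries, from 25.3 to 7986 CPM, and 0 of 4 were higher in APP/PS1 (median -0.56, and -1.36 with control peptide), with 0 called. Endothelial markers were higher in 3 of 7 (median -0.045), with 5 of 7 higher with control peptide and 0 of 7 with inhibitor. Pericyte markers were higher in 4 of 6 (median 0.0068) and smooth muscle markers in 4 of 4 (0.15). Fibroblast markers were higher in 5 of 5 (0.17) and erythroid genes in the 2 tested (0.68). In each of these lists 0 were called. No marker was at 0 in all libraries. With a neuron marker score in the model the median genotype change of the 10 genes was 0.26 over both peptides. It was 0.15 with control peptide and 0.32 with inhibitor. Over both peptides Arc and Jun, but not Atf3, kept an unadjusted p under 0.05, which 1312 of all 18753 genes had. The part of the other cell types in the differences was not tested.

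The effect of the inhibitor was examined next. Over both genotypes 9 of 10 genes were higher with inhibitor (51.4% of all genes), with log2 changes of -0.074 to 0.47 and a median of 0.19. The count was 8 to 10 under other ways of fitting and 6 without APP_SC replicate 2. The median was 0.087 without that library, 0.11 without WT_NOX2 replicate 5 and 0.29 without WT_NOX2 replicate 4. The tests of edgeR and DESeq2 called 0 of the 10, and edgeR gave 0 with an unadjusted p under 0.05. Among all genes 0% were called and 2.11% were under 0.05 before adjustment. Beside this, 4 of 4 smooth muscle markers were higher with inhibitor (median 0.39), 0 of 6 oligodendrocyte markers were (median -0.11) and 2 of 8 neuron markers were (median -0.048), with 0 called by edgeR in each list. Their part in the values was not tested. In WT, 9 of 10 were higher (50.6% of all genes), with a range of -0.092 to 0.45 and a median of 0.11, and 0 were called by edgeR or DESeq2 (0% of all genes). The median was 0.018 without WT_SC replicate 3 and 0.26 without WT_NOX2 replicate 4. No unadjusted p of a member was under 0.05, against 1.34% of all genes. Egr2 stood at the top of this range with 0.45 ± 0.55.

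In APP/PS1, 8 of 10 genes were higher with inhibitor (50.2% of all genes), with log2 changes of -0.10 to 0.50 and a median of 0.24. Again 0 were called by edgeR or DESeq2 (0% of all genes), and 0 had an unadjusted p under 0.05 (1.80% of all genes). Egr2 was at 0.50 ± 0.67. This value depended on the 2 APP_SC libraries, since the median was 0.84 with 10 of 10 higher without replicate 1, and -0.20 without replicate 2. The genotype comparison with control peptide uses the same 2 libraries.

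The interaction of genotype and inhibitor was above 0 for 8 of 10 genes (49.3% of all genes). Its log2 values ran from -0.38 ± 0.64 for Atf3 to 0.29 ± 0.45 for Fos, with a median of 0.10. None was called by edgeR or DESeq2 (0% of all genes), and 0 had an unadjusted p under 0.05 (0.843% of all genes). A different response to the inhibitor in the 2 genotypes was thus not shown, and the standard error was larger than the estimate for each of the 10.

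The other genes of the early response were read from lists. In each list 0 genes passed edgeR's test in any of the 7 comparisons. The counts below stand against 50.7% of all genes higher in APP/PS1 over both peptides and 6.38% with an unadjusted p under 0.05. Genes of a list may vary together between libraries, so their directions need not be separate observations. Values without single libraries are not given for these lists. For genotype over both peptides, the relatives of Egr1 and Nr4a1 with the NAB corepressors were all above 0, 6 of 6, with a median log2 change of 0.18 and 2 at an unadjusted p under 0.05. These were Nr4a3, a nuclear receptor of the same family, and Egr3. Nr4a3 averaged 19.4 ± 6.01 CPM in WT (SD, n = 10) and 29.5 ± 9.83 CPM in APP/PS1 (SD, n = 7), with an edgeR log2 change of 0.57 ± 0.21 (adjusted p = 0.510). For Egr3 the edgeR change was 0.49 ± 0.23 (adjusted p = 0.776). In the same list Nab1 (0.079 ± 0.11), Nab2 (0.069 ± 0.078) and Nr4a2 (0.13 ± 0.15) lay within 1 SE of 0. Of 8 further AP-1 partners 7 were tested and 5 were higher, with a median of 0.14. Fosl2, a Fos relative, was at 0.18 ± 0.14 (adjusted p = 0.941) by edgeR and Mafg, a small Maf protein, at 0.14 ± 0.076 (adjusted p = 0.827).

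Among 28 other primary response genes 20 were higher in APP/PS1, with a median of 0.12 and 3 at an unadjusted p under 0.05 (6.38% of all genes). Trib1, a pseudokinase, was at 0.51 ± 0.18 (adjusted p = 0.500) by edgeR, and Plk3, a polo-like kinase, at 0.28 ± 0.10 (adjusted p = 0.536). Among 13 neuronal activity effectors 9 were higher, with a median of 0.11 and 3 at an unadjusted p under 0.05. Inhba, a subunit of activin, averaged 6.43 ± 1.83 CPM in WT (SD, n = 10) and 10.1 ± 2.75 CPM in APP/PS1 (SD, n = 7), and its edgeR log2 change was 0.67 ± 0.19 (adjusted p = 0.196). Homer1, a postsynaptic scaffold whose short form is an early gene, averaged 194 ± 30.5 CPM in WT (SD, n = 10) and 259 ± 59.9 CPM in APP/PS1 (SD, n = 7), with an edgeR log2 change of 0.40 ± 0.12 (adjusted p = 0.297).

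Next it was asked whether the genes moved together between libraries of the same group. Group means were subtracted from log2 CPM, and 45 pairs were correlated over 17 libraries with 100000 permutations within groups, two-sided. Of these 44 were positive, with a median Pearson r of 0.66 and a range of -0.16 to 0.94. Among all 175828128 pairs of the 18753 genes 49.7% were positive. An r of 0.609, the lowest of a called pair, was reached by 27 of the 45 pairs and by 4.05% of all pairs. At a Benjamini-Hochberg adjusted p of 0.05 over the pairs, 26 were called by Pearson's r and 22 by Spearman's rho. Without the 2 libraries farthest from the median of the x measure 42 pairs were positive, and the median r was 0.48. The called pairs then had r of at least 0.30, and 6 of the 26 fell under 0.5, of which 4 involved Junb. They rested in part on those libraries.

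By Pearson's r Arc was called with 8 of the 9 others and Nr4a1 with 7, and by Spearman's rho both were called with 7. Arc and Nr4a1 gave the highest value (r = 0.94, rho = 0.96, permutation p = 1e-05 for r, the smallest that 100000 permutations can give), and r was 0.93 without the 2 farthest libraries. Arc followed Egr2 (r = 0.93, rho = 0.83) and Fos (r = 0.88, rho = 0.79) nearly as closely. Atf3 was called with Jun alone by Pearson's r (r = 0.75, rho = 0.81), and by Spearman's rho also with Fosb (0.68) and Egr1 (0.71). It had r of 0.14 with Fos and -0.16 with Npas4. Jun and Npas4 had r of 0.22. Leaving out single libraries gave 7 to 30 called pairs, with 7 when APP_NOX2 replicate 4 was left out and 16 without WT_NOX2 replicate 4. With all libraries thinned to one total, 13 were called.

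**Figure D4:**
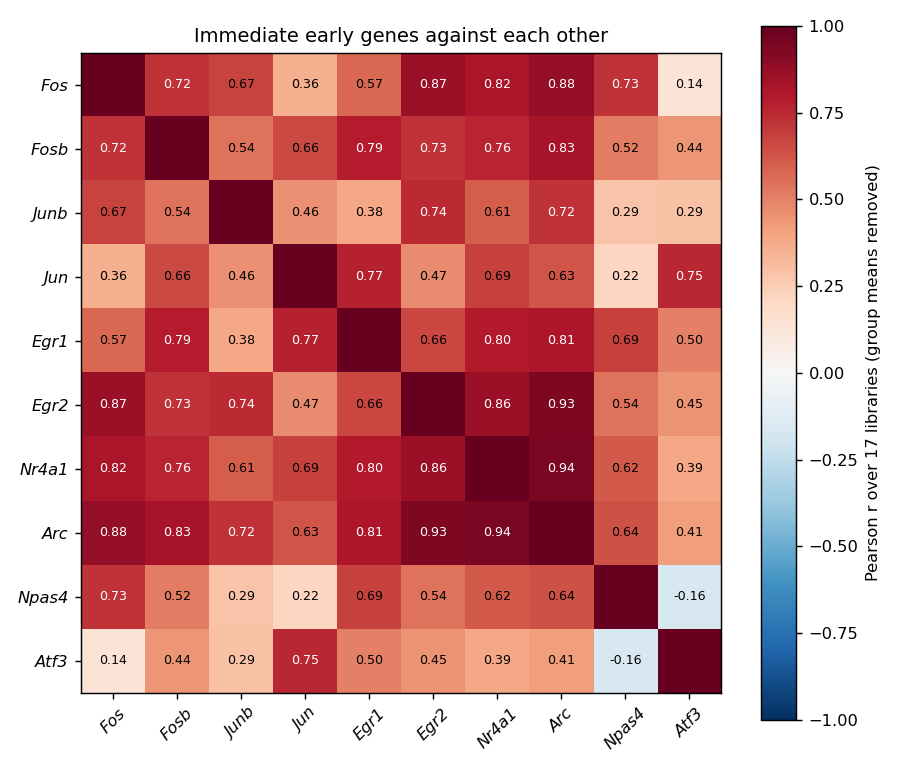
Pearson r between the 10 genes over 17 libraries after group means were removed, with genes on both axes and r as colour and number. Arc, Nr4a1, Egr2 and Fos form a block of values of at least 0.82, and the pair of Atf3 and Npas4 gives the lowest value.

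The genes were also set against 5 measures of the libraries, 50 relations in all, chosen after the values were seen. All 10 were positive against log2 total count (median r 0.61), as were 48.5% of all genes. By r 3 were called after adjustment over the 50, namely Egr1 (r = 0.79, rho = 0.69, permutation p = 0.00100, adjusted p = 0.0393), Jun (r = 0.74, rho = 0.68) and Nr4a1 (r = 0.72, rho = 0.71). The lowest of these r was reached by 2.22% of all genes. By rho the called genes were Egr1, Nr4a1 and Arc, and Jun was not called. All 10 were also positive against the neuron marker score (median r 0.49), as were 48.2% of all genes, and Egr1 was called (r = 0.81, rho = 0.74, permutation p = 0.00157, adjusted p = 0.0393). Its r was 0.68 without the 2 farthest libraries. The endothelial score and the share of Gm26917 and Gm42418 gave 0 called relations. The astrocyte score was positive for 10 and gave 0 called by r and 2 by rho, for Arc and Nr4a1. The part of depth and of neuronal RNA in the correlations between genes was not tested.

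Over the 17 libraries the genes whose pattern was most like the mean of the 10 were Dusp5 (r = 0.91), Alg5 (0.91), Dusp1 (0.90), Dctn5 (0.90) and Trib1 (0.89), out of 18743 other genes compared on log2 CPM less the group mean. Dusp5 and Dusp1 encode phosphatases of MAP kinases, and Alg5 is a glycosyltransferase of the endoplasmic reticulum. Dctn5 is a dynactin subunit. These values are a description over libraries that share depth and cell makeup.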

How the data were processed

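Raw read counts for each Ensembl gene were deposited by the authors in a single matrix. Per the submitters' processing notes the tools were cutadapt, STAR, HTSeq and DESeq2 and the builds GRCh37 and mm10, with no versions or roles; the strand setting of the counting is not given in the sources used here, so reads of overlapping antisense genes cannot be told apart. Per the labels' protocols ribosomal RNA was depleted and a stranded kit was used. A further 20 columns matched no sample and were not used. Symbols came from GENCODE vM21 (42250 IDs matched, 437 did not).

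All genes were fitted at once with edgeR 4.0.16 (R 4.3.3; TMM, filterByExpr, glmQLFit and glmQLFTest, 18753 genes kept), with Benjamini-Hochberg adjustment over all of them and a threshold of 0.05. The fit over both peptides or genotypes was additive, and the others used one mean per group over all 17 libraries, which share one dispersion. DESeq2 1.42.0 was an alternative. Log2 CPM used a prior count of 2. Library pairs of one group differed beyond sampling noise. The scripts were tested on simulated data.

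The 10 genes and all lists were chosen with earlier results of these data known. Named by rule were all 10, the genes with adjusted p under 0.05 and the 2 with the smallest p for genotype in each pathway list, and the 5 genes most like their mean. The smallest level was taken as 3 counts.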

Additional observations from a re-analysis of the deposited data

Results flagged for a closer look

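Each of the 10 genes was checked in the 3 groups of 5 libraries for a library far from the others (Dixon's test at 95%), 30 checks in all, of which chance flags about 1 in 20, or 1.5. WT_NOX2 replicate 4 stood apart in 2. For Junb it was at 17.3 CPM and the other 4 libraries of the group at 34.4 to 37.2 CPM, a gap of 0.897 of the group's range. For Egr2 it was at 0.130 CPM, which is 1 count, and the others at 2.15 to 4.51 CPM, a gap of 0.746 of the range. This library had the smallest total, 7316503 counts, and the lowest neuron marker sum, 3082 CPM. It remained the lowest library for both genes when all were thinned to its total. CPM is already divided by library size, so thinning cannot show whether depth played a part.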

How the results depend on the processing

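No paired analysis was possible because the labels carry no replicate numbers shared between groups. No member was called by edgeR or DESeq2 in the 7 comparisons under any setting run. Leaving out each library in turn moved the median log2 change for genotype with control peptide from -0.37 to 0.70, for inhibitor in APP/PS1 from -0.20 to 0.84, and for the interaction from -0.26 to 0.78, with the lowest or highest value in each case without an APP_SC replicate. Called correlations between members numbered 7 to 30 without single libraries and 13 after thinning. The other medians moved too and stayed above 0. For genotype they ran over 0.24 to 0.47 over both peptides and 0.26 to 0.55 with inhibitor. For the inhibitor they ran over 0.018 to 0.26 in WT and 0.087 to 0.29 over both genotypes. Over the 10 members and 7 comparisons, 1504 of 1610 values under the alternatives kept their direction and 106 reversed, with 0 called. For the results that the text names for single members, 30 of 782 reversed. With control peptide the ranges without single libraries were -0.26 to 0.57 for Fos, -0.48 to 0.78 for Fosb, -0.23 to 0.032 for Junb, -0.57 to 1.00 for Egr1, -0.52 to 1.39 for Egr2, -0.48 to 0.63 for Nr4a1, -0.066 to 0.76 for Arc and -0.83 to 0.16 for Npas4. Over both peptides they were -0.11 to 0.057 for Junb and -0.21 to 0.020 for Npas4, and with inhibitor -0.11 to 0.15 and -0.16 to 0.11. The interaction ran over -0.052 to 0.77 for Fos and -0.79 to 0.27 for Atf3, and the inhibitor change of Egr2 in APP/PS1 over -0.12 to 1.79. Thinning, an alternative chosen after seeing the data, gave Fosb -0.091 with control peptide. The causes were not tested. Of all genes, edgeR called 110 for genotype over both peptides (DESeq2 182; 70 to 125 without single libraries, 70 without APP_SC replicate 2), 10 with control peptide (DESeq2 45; 16 with the neuron score; 4 to 17) and 34 with inhibitor (DESeq2 61; 19 thinned; 15 to 38). Without the low count filter 5 members had an unadjusted p under 0.05 for genotype over both peptides, where 1742 of all 30805 genes did. They were Fos, Arc, Atf3, Egr2 and Jun, and the smallest edgeR adjusted p was 0.442. Egr2 and Atf3, with as few as 1 and 2 counts in a library, are limited by depth.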

Other observations

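Regulators upstream of the immediate early genes were read from the same fit. There were 16 such genes (serum response factor and its partners, CREB and its coactivators, MAP kinases and MEF2 factors). Of these 10 were higher in APP/PS1 over both peptides (50.7% of all genes), with a median log2 change of 0.034. In edgeR 0 had an unadjusted p under 0.05 (6.38% of all genes). The smallest p-values were those of Mef2d, with an edgeR log2 change of 0.14 ± 0.081 (adjusted p = 0.867), and Mef2a, at 0.12 ± 0.069 (adjusted p = 0.868). Of 10 stress response genes 8 were higher, with a median of 0.18, 2 at an unadjusted p under 0.05 and 0 called by edgeR. Hsph1, a heat shock protein, averaged 71.2 ± 16.1 CPM in WT (SD, n = 10) and 91.6 ± 20.2 CPM in APP/PS1 (SD, n = 7), with an edgeR change of 0.32 ± 0.13 (adjusted p = 0.665). Trib3, a target of the integrated stress response, was at 0.53 ± 0.24 (adjusted p = 0.741) by edgeR.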
